A study of Mus musculus with 12 samples.

Results

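The 35 genes described here encode the machinery that builds the N-glycan precursor on dolichol, transfers it to proteins in the endoplasmic reticulum (ER) and trims and reads it there. They were listed by name, from Dpagt1, the enzyme that tunicamycin inhibits, through the oligosaccharyltransferase to glucose trimming and the lectin cycle, with earlier results of these data known. All 35 were measured and all passed the filter on dim probe sets, among 14568 genes tested. N-linked glycans are built as a lipid-linked oligosaccharide: sugars are added to dolichol phosphate first on the cytosolic face of the ER membrane and then, after the lipid has flipped, on the lumenal face. The oligosaccharyltransferase moves the finished glycan to asparagine residues of entering proteins, after which glucosidases trim it and calnexin and calreticulin hold glycoproteins while they fold. Hepatocytes secrete most plasma glycoproteins, and tunicamycin stops the first step of the pathway, so that unfolded glycoproteins collect in the ER.

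The study compared mouse livers with and without ER stress in the presence and absence of Ire1α, an ER membrane kinase and RNase encoded by Ern1 that splices the Xbp1 transcript. The 4 groups, all C57Bl/6J mice aged 3 months, were profiled on 12 Affymetrix arrays, 3 in each group: control and Ire1α conditional null mice, titled Fe+CRE+ and Fe-CRE+, each given tunicamycin (2 µg per g of body weight) or vehicle (150 µM dextrose) by intraperitoneal injection 8 hours before the liver was taken. Both genotypes carry the label CRE+, and for the promoter that drives Cre no source used here gives a name. The samples are labelled as biological replicates, with no word on whether each was 1 animal or a pool, so p-values measure the spread between these samples.

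The trimmed mean of the deposited intensities was 228 to 261 on the 6 vehicle arrays and 240.0 to 303 on the 6 tunicamycin arrays. Hepatocyte markers were high throughout, with a summed intensity of 64887 to 76293 over the 6 of 7 measured, and none of the 6 passed the test in any comparison. Kidney markers, 8 of 10 measured, summed to 152.5 to 189.8 on most arrays. On null tunicamycin replicate 1 the sum was 324, a small excess that stays in the fits without replicate 2. Null tunicamycin replicate 2 stood apart, with a sum of 28114, and carried kidney transcripts. On that array all 8 measured kidney markers lay more than 1 above the other 11 arrays in log2 value, with Umod at 13.1 against at most 6.55. The bile duct markers, 3 of 5 measured, summed to 1005 there and to 70.5 to 160.0 on the other arrays. The main counts of calls that rest on null tunicamycin livers, and the values of the members that the results turn on, are given with and without it. Counts of arrays that do not overlap, of rises in both genotypes and at an unadjusted p are given only with it. The 5 Ern1 probe sets differed between genotypes by -0.24 to 0 with vehicle and by -0.37 to 0.10 with tunicamycin (log2, smallest adjusted p = 0.678). Their position relative to the deleted part of the gene was not known here, so they do not check the label null. In whole liver, fewer cells of a type and less RNA per cell cannot be told apart.

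Promoter windows, the 250 bases before the RefSeq gene start on build GRCm38.p6, were matched for 30 of the 35 members, and not for Dpagt1, Alg2, Tusc3, Ostc and Alg11. They are shown for the members that hold an element of the unfolded protein response and for Dolpp1, the only member called in the reported test of genotype by treatment. The ER stress element, bound by ATF6 and XBP1 together with NF-Y, was searched as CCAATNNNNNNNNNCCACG, and the core of the unfolded protein response element, bound by XBP1 and ATF6, as TGACGTG, both on both strands. The ER stress element occurred in 3 of 30 members and in 0.13% of 27025 genes with a window. The core occurred in 3 of 30 members and in 1.85% of genes. CCAAT alone, part of the longer element and the letters read by NF-Y, occurred in 16 of 30 members and 37.5% of genes. CCACG alone, the other end of that element, occurred in 11 of 30 members and 31% of genes. TGACGTG, read on the other strand, can share letters with CCACG. A match is only a run of letters and not a shown binding site. In the first set, from Alg12 (chr15:88819319-88819568, minus strand), Canx (chr11:50325674-50325923, minus strand) and Calr (chr8:84846932-84847181, minus strand), the capitals mark the ER stress element, which in Calr lies on the other strand. It began 220 bases before the start in Alg12, 145 in Canx and 162 in Calr.
Alg12: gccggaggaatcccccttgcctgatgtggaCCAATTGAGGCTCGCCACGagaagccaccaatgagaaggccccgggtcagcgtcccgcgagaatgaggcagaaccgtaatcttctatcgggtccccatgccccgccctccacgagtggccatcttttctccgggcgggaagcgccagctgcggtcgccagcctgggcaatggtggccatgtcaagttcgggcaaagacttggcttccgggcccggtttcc
Canx: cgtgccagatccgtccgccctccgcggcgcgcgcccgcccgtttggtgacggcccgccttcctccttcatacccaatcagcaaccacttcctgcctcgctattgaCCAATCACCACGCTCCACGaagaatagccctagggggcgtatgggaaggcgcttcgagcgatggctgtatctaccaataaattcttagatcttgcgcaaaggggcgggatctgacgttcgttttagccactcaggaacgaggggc
Calr: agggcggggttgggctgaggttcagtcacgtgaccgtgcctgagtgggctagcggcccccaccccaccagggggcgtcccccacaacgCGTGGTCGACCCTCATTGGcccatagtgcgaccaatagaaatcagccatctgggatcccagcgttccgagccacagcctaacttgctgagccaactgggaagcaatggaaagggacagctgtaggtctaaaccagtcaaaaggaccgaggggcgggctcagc
In the second set, from Dhdds (chr4:134000883-134001132, minus strand), Dpm2 (chr2:32570608-32570857, plus strand) and Mogs (chr6:83115256-83115505, plus strand), the capitals mark TGACGTG, which in Dpm2 lies on the other strand.
Dhdds: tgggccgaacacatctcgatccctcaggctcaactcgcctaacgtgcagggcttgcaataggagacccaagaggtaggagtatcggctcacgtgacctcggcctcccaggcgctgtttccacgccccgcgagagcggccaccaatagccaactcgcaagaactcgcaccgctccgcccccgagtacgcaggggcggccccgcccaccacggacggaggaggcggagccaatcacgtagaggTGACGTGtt
Dpm2: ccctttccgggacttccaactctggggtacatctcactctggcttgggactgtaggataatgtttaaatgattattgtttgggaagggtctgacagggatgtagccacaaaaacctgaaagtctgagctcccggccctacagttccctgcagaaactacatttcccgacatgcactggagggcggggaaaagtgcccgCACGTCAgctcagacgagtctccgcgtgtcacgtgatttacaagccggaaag
Mogs: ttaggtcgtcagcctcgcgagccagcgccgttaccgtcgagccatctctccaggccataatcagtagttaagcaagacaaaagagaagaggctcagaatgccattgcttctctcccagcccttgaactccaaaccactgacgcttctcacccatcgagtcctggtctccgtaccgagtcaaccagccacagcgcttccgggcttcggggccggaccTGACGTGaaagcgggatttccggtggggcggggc
The core began 9 bases before the start in Dhdds, 52 in Dpm2 and 34 in Mogs. The last window, from Dolpp1 (chr2:30392004-30392253, plus strand), held neither element, and its capitals mark CCAAT read on the other strand, found 4 times.
Dolpp1: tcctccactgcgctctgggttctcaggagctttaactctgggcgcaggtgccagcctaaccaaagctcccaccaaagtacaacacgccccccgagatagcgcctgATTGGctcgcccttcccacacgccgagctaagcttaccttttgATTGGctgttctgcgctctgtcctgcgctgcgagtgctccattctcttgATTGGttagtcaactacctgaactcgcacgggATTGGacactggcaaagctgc

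In control livers tunicamycin raised the transcripts of 16 of the 35 members and lowered 2, while 17 did not pass (limma, adjusted p under 0.05, called a rise or fall from here on). The rises were from 0.48 to 2.36 on the log2 scale of value plus 16, and came from every stage of the pathway: 1 of 4 genes of dolichol supply, 1 of 4 of the sugar donors, 2 of 6 of the cytosolic steps, 1 of 5 of the lumenal steps, 6 of 9 subunits of the oligosaccharyltransferase and 5 of 7 genes of trimming and folding. Of all genes tested 11.6% rose and 13.3% fell. The members' median change was 0.43 and that of all genes -0.11. The 3 tunicamycin arrays lay above the 3 vehicle arrays for 19 members, against 18% of all genes. The split between rises and falls moved with the scaling. With array medians centred in place of quantile normalization it was 19 rises and 0 falls, against 2101 and 1183 of all 14568 genes. With the values as deposited it was 18 and 0, against 2063 and 1068 of all genes. There the median of all genes shifted by 0.115 to 0.009 and the members lay 0.66 above it. The actin 5′ to 3′ ratio, which falls with RNA degradation, was 0.757 ± 0.323 (SD, n = 3) in control vehicle and 0.328 ± 0.0533 in control tunicamycin arrays. With that ratio as a covariate 14 members rose and 1 fell, against 982 and 783 of all 14568 genes.

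**Figure D1:**
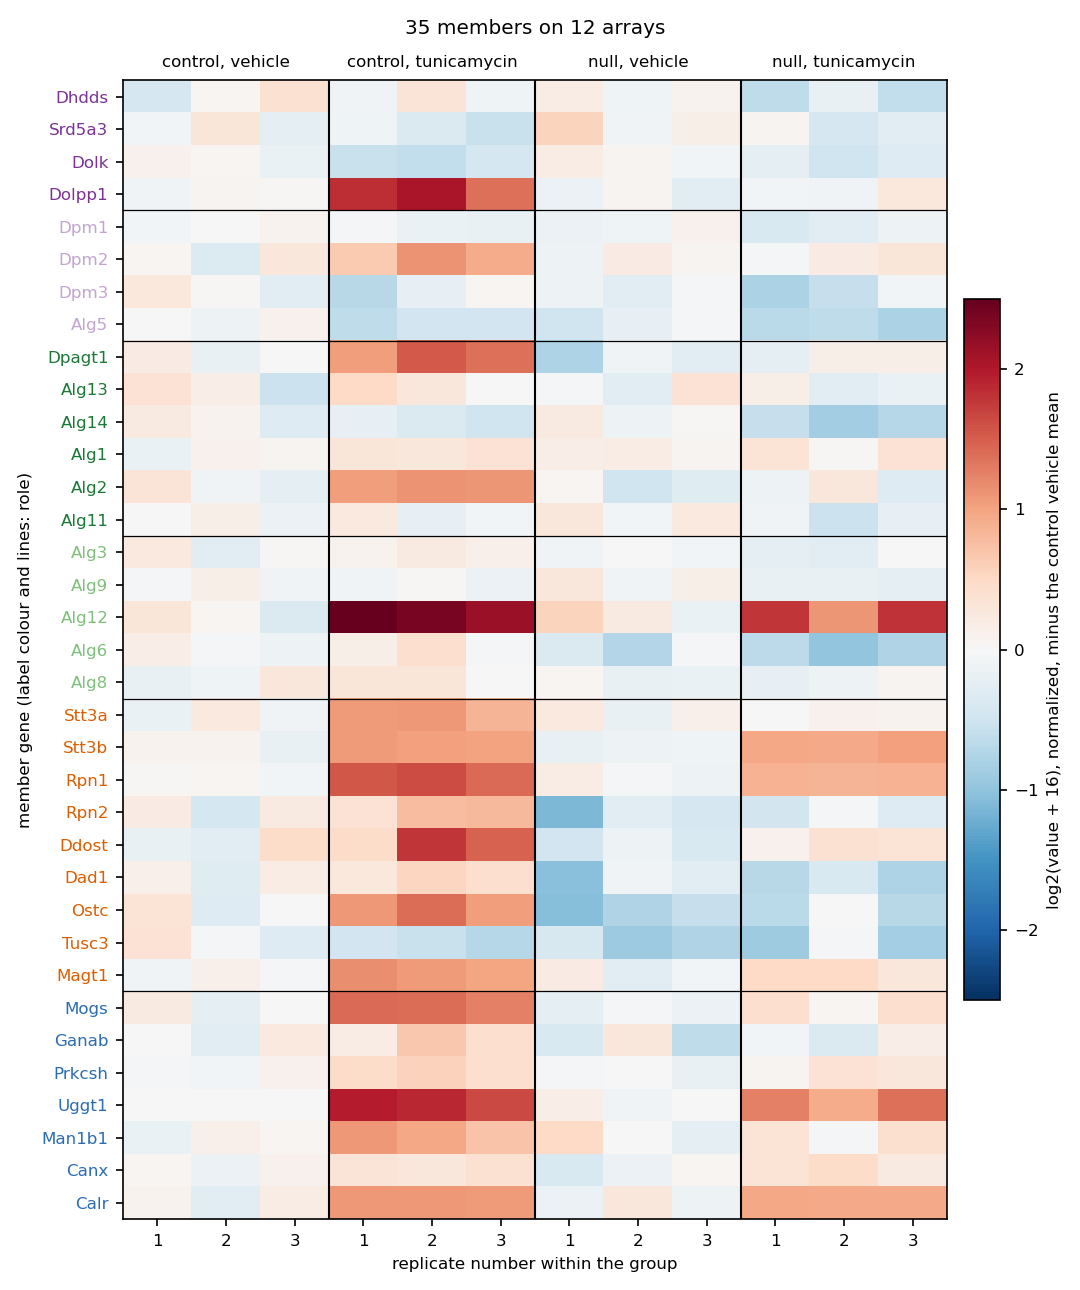
Normalized log2 value of each of the 35 members (rows, ordered and coloured by role) on each of the 12 arrays (columns, by group and replicate number), minus the mean of the control vehicle arrays, on a colour scale from -2.5 to 2.5. The control tunicamycin columns are red for the 16 members that rose, with Alg12, Uggt1 and Dolpp1 the darkest, and the null tunicamycin columns are red for fewer rows.

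Among the genes that supply and recycle dolichol, Dolpp1 carried the change in control livers. Dolpp1 encodes the phosphatase that recycles the dolichyl pyrophosphate left after glycan transfer. Its deposited intensity was 133, 135 and 124 in control vehicle, 630.0, 667 and 394 in control tunicamycin, 111, 148 and 99.2 in null vehicle and 149, 123 and 206 in null tunicamycin livers. The 3 control tunicamycin values lay above all 9 others, and null tunicamycin livers overlapped with vehicle. The rise was 1.75 ± 0.18 in control livers (log2 change ± standard error of the limma fit, adjusted p = 2.95e-05), and the change in null livers was 0.15 ± 0.18 (adjusted p = 0.614). Dolk, the kinase that makes dolichol phosphate, read 512, 445 and 354 in control vehicle, 367, 317 and 346 in control tunicamycin, 460.4, 475 and 399 in null vehicle and 462, 298 and 442 in null tunicamycin livers. Its normalized values fell in control livers by 0.54 ± 0.14 (adjusted p = 0.0122), although the deposited values of the groups overlapped. That call was lost with centred medians or the values as deposited (-0.34 and -0.32), and without control tunicamycin replicate 2 (-0.50, adjusted p = 0.0532). Srd5a3, the reductase that turns polyprenol into dolichol, read 171, 205 and 128 in control vehicle, 187, 142 and 109.9 in control tunicamycin, 230.1, 166 and 176 in null vehicle and 215, 121 and 172 in null tunicamycin livers. The groups overlapped and no comparison of it passed. Dhdds encodes the catalytic subunit of the cis-prenyltransferase that makes the dolichol chain. The probe set used for it changed by 0.04 ± 0.21 in control livers (adjusted p = 0.909) and by -0.54 ± 0.21 in null livers (adjusted p = 0.111), but its further probe sets differed from it, as described with the other probe sets.

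Dolichol phosphate mannose and dolichol phosphate glucose donate the sugars that are added on the lumenal face. Dpm2, a regulatory subunit of the mannose donor's synthase, read 271, 182 and 266 in control vehicle, 482, 617 and 509 in control tunicamycin, 201, 294 and 236 in null vehicle and 286, 267 and 379.6 in null tunicamycin livers. Only the control tunicamycin arrays stood above the rest. It rose by 0.90 ± 0.19 in control livers (adjusted p = 0.0042) and changed by 0.10 ± 0.19 in null livers (adjusted p = 0.768). Alg5, the glucose donor's synthase, went the other way and read 782, 655 and 730.4 in control vehicle, 574, 586 and 565 in control tunicamycin, 466, 643 and 660.1 in null vehicle and 554, 433 and 521 in null tunicamycin livers. It fell by 0.53 ± 0.14 in control livers (adjusted p = 0.0163) and by 0.45 ± 0.14 in null livers (adjusted p = 0.0499). The fall in null livers was lost without any 1 array other than null vehicle replicate 1 (-0.48 to -0.35), and both falls were lost with centred medians. The fall in control livers was also lost without control vehicle replicate 3 or control tunicamycin replicate 1 (-0.47 and -0.48). Dpm3, which anchors the mannose synthase, was the dimmest member and read 33.3, 25.2 and 16.6 in control vehicle, 9.55, 19.2 and 25.2 in control tunicamycin, 21.2, 18.8 and 21.6 in null vehicle and 7.57, 11.2 and 23.9 in null tunicamycin livers. Its groups overlapped. Dpm1, the catalytic subunit, changed by -0.13 ± 0.13 in control and by -0.21 ± 0.13 in null livers, and neither passed.

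Dpagt1, which adds the first sugar phosphate to dolichol phosphate and is the enzyme tunicamycin blocks, rose in control livers. Its deposited intensity was 341, 226 and 241 in control vehicle, 709.6, 923 and 799 in control tunicamycin, 142, 266 and 208 in null vehicle and 279.6, 286 and 381 in null tunicamycin livers. The control tunicamycin arrays lay above all 9 others. The null tunicamycin arrays lay above null vehicle and overlapped with control vehicle, and in normalized values they overlapped with null vehicle too. The rise was 2.50-fold in control livers (log2 1.32 ± 0.21, adjusted p = 0.000618), and the change in null livers was 1.31-fold (0.39 ± 0.21, adjusted p = 0.231). Alg2, a mannosyltransferase of the cytosolic face, read 487, 324 and 273 in control vehicle, 942, 899 and 880.3 in control tunicamycin, 338, 259 and 271 in null vehicle and 402, 415 and 359 in null tunicamycin livers. It showed the same arrangement, with a rise of 1.09 ± 0.20 in control livers (adjusted p = 0.00199) and a value of 0.19 ± 0.20 in null livers (adjusted p = 0.57). Alg1, which adds the first mannose, read 361, 395 and 359 in control vehicle, 582, 522 and 529.5 in control tunicamycin, 390.0, 443 and 376 in null vehicle and 592, 366 and 611 in null tunicamycin livers. Its deposited values did not overlap between the control groups, but the change of 0.31 ± 0.14 did not pass (adjusted p = 0.116). Alg13 and Alg14 together form the transferase that acts after Dpagt1 and before Alg1, with Alg14 as the membrane anchor. Alg14 changed by -0.35 ± 0.17 in control livers and fell by 0.76 ± 0.17 in null livers (adjusted p = 0.00989), a call lost with centred medians (-0.59), the values as deposited (-0.51) and the mean of its probe sets. Alg13 (0.26 ± 0.25 in control, -0.11 ± 0.25 in null livers) and Alg11, which adds the last mannoses of this face (-0.0074 ± 0.17 and -0.43 ± 0.17), passed in neither genotype.

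On the lumenal face Alg12 rose in both genotypes and the other 4 genes did not pass. The probe set used for it had the largest rise of those used for the 35 members, but with the mean of its probe sets the rise was 1.13 in control and 0.54 in null livers, below Dolpp1 and Uggt1 (1.75 and 1.76) in control livers. Alg12, a mannosyltransferase, read 156, 114 and 79.7 in control vehicle, 896, 739.5 and 614 in control tunicamycin, 161, 144 and 91.6 in null vehicle and 524, 249 and 544 in null tunicamycin livers. Every control tunicamycin value lay above every null tunicamycin value, and these above every vehicle value. It rose 5.12-fold in control livers (2.36 ± 0.25, adjusted p = 3.38e-05) and 2.57-fold in null livers (1.36 ± 0.25, adjusted p = 0.00285). Without the array with kidney transcripts, which held its lowest null tunicamycin value, the rise in null livers was 1.60 ± 0.24 (adjusted p = 0.00106). Alg8, a glucosyltransferase, read 303, 284 and 350.2 in control vehicle, 489.8, 442 and 342 in control tunicamycin, 296, 291 and 265 in null vehicle and 336, 279 and 419 in null tunicamycin livers. Alg3, a mannosyltransferase, read 300.4, 183 and 213 in control vehicle, 310.0, 307 and 270.2 in control tunicamycin, 201, 246 and 206 in null vehicle and 237, 182 and 293 in null tunicamycin livers. The groups of both genes overlapped, and their control changes were 0.20 ± 0.16 and 0.15 ± 0.15. Alg6, which adds the first glucose, read 194, 149 and 129 in control vehicle, 214, 240.2 and 156 in control tunicamycin, 114, 96.7 and 144 in null vehicle and 111, 74.1 and 108 in null tunicamycin livers. Its control tunicamycin and vehicle arrays overlapped (0.18 ± 0.19), and all 3 of its null tunicamycin arrays lay below all 6 control arrays. Alg9, another mannosyltransferase, changed by -0.07 ± 0.14 in control and -0.32 ± 0.14 in null livers.

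The oligosaccharyltransferase exists in alternative forms, built around Stt3a, which acts as the protein enters the ER, or Stt3b, which can act later. In control livers both catalytic subunits rose, and in null livers Stt3b rose and Stt3a did not pass. Stt3a read 2353, 3036 and 2349.5 in control vehicle, 6210.5, 6274 and 5274 in control tunicamycin, 2792, 2297 and 2624 in null vehicle and 3062, 2714 and 3214 in null tunicamycin livers. Its control tunicamycin arrays lay far above the other 9, which overlapped. Stt3b read 2564, 2546 and 2033 in control vehicle, 5803, 5617 and 5420.0 in control tunicamycin, 1896, 2239 and 2066 in null vehicle and 5308, 4630.2 and 5723 in null tunicamycin livers. Here all 6 tunicamycin arrays lay above all 6 vehicle arrays, and those of the genotypes overlapped. The rise of Stt3a in control livers was 1.00 ± 0.16 (adjusted p = 0.000602), and its change in null livers was -0.0022 ± 0.16 (adjusted p = 0.995). The rise of Stt3b was 1.03 ± 0.12 in control (adjusted p = 8.26e-05) and 1.12 ± 0.12 in null livers (adjusted p = 9.46e-05). The difference between the responses of these genes was not tested.

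Of the subunits common to both forms, Rpn1 read 2005, 1965 and 1745 in control vehicle, 6429, 6852 and 5776 in control tunicamycin, 1975, 1884 and 1625 in null vehicle and 3988, 3476 and 4168 in null tunicamycin livers. Its values fell into separate ranges, vehicle lowest, null tunicamycin between and control tunicamycin highest. It rose by 1.53 ± 0.13 in control (adjusted p = 6.7e-06) and by 0.86 ± 0.13 in null livers (adjusted p = 0.000837). Ddost rose by 1.24 ± 0.30 in control livers (adjusted p = 0.01), with a wide spread of 1422 to 3478 between its tunicamycin arrays, and changed by 0.60 ± 0.30 in null livers (adjusted p = 0.208). Dad1 read 2773, 1996 and 2782 in control vehicle, 3531, 4183 and 3855 in control tunicamycin, 1080.5, 2385 and 1918 in null vehicle and 1831, 1865 and 1779.5 in null tunicamycin livers. The control tunicamycin arrays were the highest, although the change of 0.41 ± 0.24 did not pass (adjusted p = 0.233), and null tunicamycin lay within the range of null vehicle. Rpn2 changed by 0.65 ± 0.25 in control livers (adjusted p = 0.081) and passed with centred medians (0.87, adjusted p = 0.0276). Its change in null livers was 0.34 ± 0.25 (adjusted p = 0.404).

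Ostc, a subunit of the Stt3a form, read 1332, 781 and 932 in control vehicle, 2534, 3096 and 2424 in control tunicamycin, 433, 607 and 632 in null vehicle and 766, 942 and 769 in null tunicamycin livers. Control tunicamycin lay above the rest and null vehicle below the rest, while control vehicle and null tunicamycin overlapped. It rose by 1.18 ± 0.23 in control livers (adjusted p = 0.00245) and changed by 0.33 ± 0.23 in null livers (adjusted p = 0.36). Magt1, an oxidoreductase subunit of the Stt3b form, read 1754, 1937 and 1686 in control vehicle, 4717, 4338 and 4105 in control tunicamycin, 1874, 1490.0 and 1606 in null vehicle and 3003, 2542 and 2605 in null tunicamycin livers. It formed 3 steps without overlap, vehicle, null tunicamycin and control tunicamycin. The rise was 1.07 ± 0.15 in control (adjusted p = 0.000258) and 0.47 ± 0.15 in null livers (adjusted p = 0.0494), the latter lost without any 1 array other than null vehicle replicate 1 (0.35 to 0.54, adjusted p = 0.0567 to 0.154). Tusc3, the alternative to Magt1 in that form, changed by -0.58 ± 0.24 in control (adjusted p = 0.106) and 0.10 ± 0.24 in null livers (adjusted p = 0.826).

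**Figure D2:**
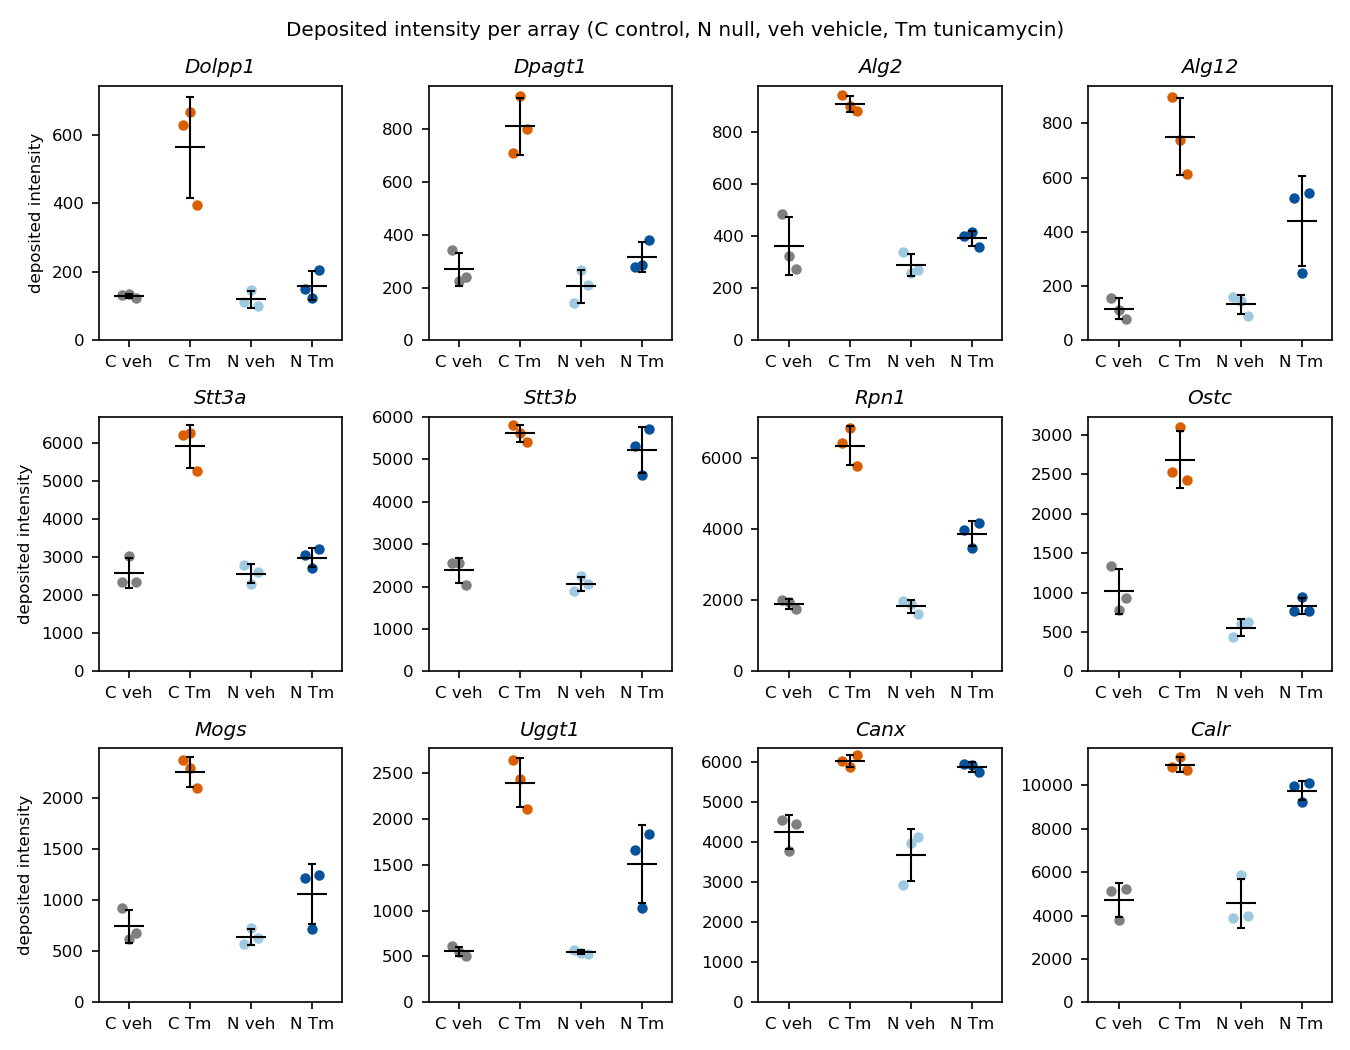
Deposited intensity (linear, each axis from 0) of 12 members on the 12 arrays, by group (C control, N null, veh vehicle, Tm tunicamycin). Each point is an array, the long bar the mean and the whiskers the SD (n = 3). Dolpp1, Dpagt1, Alg2, Stt3a and Ostc are high in control tunicamycin only, Alg12, Rpn1 and Uggt1 are in between in null tunicamycin, and Stt3b, Canx and Calr are about as high in both genotypes with tunicamycin.

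After transfer, glucosidases I and II remove the glucoses, Uggt1 puts 1 back on proteins that have not folded, and calnexin and calreticulin bind the glycan with that glucose. Uggt1 read 609, 554 and 511 in control vehicle, 2637, 2436 and 2106 in control tunicamycin, 573, 540.3 and 527 in null vehicle and 1654, 1033 and 1837 in null tunicamycin livers. The vehicle groups overlapped, null tunicamycin lay above them and control tunicamycin above all. It rose by 1.83 ± 0.15 in control livers (adjusted p = 5.55e-06) and by 1.18 ± 0.15 in null livers (adjusted p = 0.000283), where the array with kidney transcripts gave the lowest of the 3 values. Without that array the rise was 1.31 ± 0.15 (adjusted p = 0.000194). Mogs, glucosidase I, read 923, 623 and 681 in control vehicle, 2369, 2292 and 2091 in control tunicamycin, 571, 727 and 629 in null vehicle and 1215, 719 and 1248 in null tunicamycin livers. All control tunicamycin arrays lay above the others. It rose by 1.36 ± 0.15 in control livers (adjusted p = 6.31e-05), and its change in null livers was 0.45 ± 0.15 (adjusted p = 0.0688), which passed without the array with kidney transcripts (0.57 ± 0.16, adjusted p = 0.0309). Calr, calreticulin, read 5150.3, 3821 and 5209.5 in control vehicle, 10835, 11330.0 and 10703 in control tunicamycin, 3875, 5855 and 3963 in null vehicle and 9952, 9246 and 10090.0 in null tunicamycin livers. All tunicamycin arrays lay above all vehicle arrays, with rises of 1.07 ± 0.16 in control (adjusted p = 0.000358) and 0.95 ± 0.16 in null livers (adjusted p = 0.0015).

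Canx, calnexin, read 4556, 3779.5 and 4447 in control vehicle, 6022, 5885 and 6196 in control tunicamycin, 2946, 3980.1 and 4126 in null vehicle and 5961, 5940.1 and 5748 in null tunicamycin livers, again with all tunicamycin arrays above all vehicle arrays. Its change was small, 0.33 ± 0.14 in control livers (adjusted p = 0.119) and a rise of 0.50 ± 0.14 in null livers (adjusted p = 0.0337). The latter did not pass without null vehicle replicate 1 or 2 or any 1 null tunicamycin array (0.39 to 0.56), among them the array with kidney transcripts (0.44 ± 0.16, adjusted p = 0.0884), and with centred medians the control change did (0.48, adjusted p = 0.0472). Of the subunits of glucosidase II, the noncatalytic Prkcsh rose by 0.48 ± 0.13 in control livers (adjusted p = 0.0171), and the catalytic Ganab changed by 0.43 ± 0.24 (adjusted p = 0.229). Man1b1, the ER mannosidase that marks glycoproteins for degradation, rose by 0.92 ± 0.20 in control livers (adjusted p = 0.00514) and changed by 0.15 ± 0.20 in null livers. With the actin ratio in the fit neither Prkcsh (0.53, adjusted p = 0.0901) nor Man1b1 (0.91, adjusted p = 0.0618) passed, and Prkcsh also did not pass without control vehicle replicate 2 or control tunicamycin replicate 2 (0.45 and 0.44).

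In null livers 7 of the 35 members rose with tunicamycin and 2 fell. Those that rose were Alg12, Stt3b, Rpn1, Magt1, Uggt1, Canx and Calr, and those that fell were Alg5 and Alg14. Of all genes tested 7.59% rose and 9.23% fell. The members' median change was 0.11 and that of all genes -0.07. The tunicamycin arrays lay above the vehicle arrays for 10 members, against 13.6% of all genes. A total of 6 members rose in both genotypes, 37.5% of the 16 control rises and 85.7% of the 7 null rises, from separate sets of arrays. Among all genes 5.97% rose in both, 51.4% of the control rises and 78.7% of the null rises. Canx was called in null livers and not in control livers, with no call in the test of the difference (0.17 ± 0.20, adjusted p = 0.925), and its control change passed with its probe sets averaged (0.47, adjusted p = 0.0227), with centred medians, with the values as deposited and with trend and robust eBayes. Without the array with kidney transcripts 6 members rose and 1 fell, against 1031 and 1155 of all 14568 genes. The members' median was then 0.08, and without null tunicamycin replicate 3 it was 0.04. Leaving out the array with kidney transcripts, Stt3b rose by 1.14 ± 0.14, Rpn1 by 0.86 ± 0.15 and Calr by 0.95 ± 0.18 in null livers, and Alg14 fell by 0.69 ± 0.19. Magt1 (0.43 ± 0.17, adjusted p = 0.111) and Alg5 (-0.48 ± 0.16, adjusted p = 0.0716) then did not pass. Nor did Dpagt1 (0.33), Dolpp1 (0.22), Ostc (0.11), Alg2 (0.02) and Stt3a (-0.02). Alg12, Stt3b, Rpn1, Uggt1 and Calr kept their rise in null livers under all 15 alternative settings and without each of the 12 arrays. With centred medians or the values as deposited 8 members rose and 0 fell, and the median was 0.26 and 0.33, against 0.011 and 0.083 for all genes. Of all genes 1258 rose and 704 fell with centred medians, and 1478 and 513 with the values as deposited. Alg12 kept its call with the mean of its probe sets, but its rise there was 0.54.

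**Figure D3:**
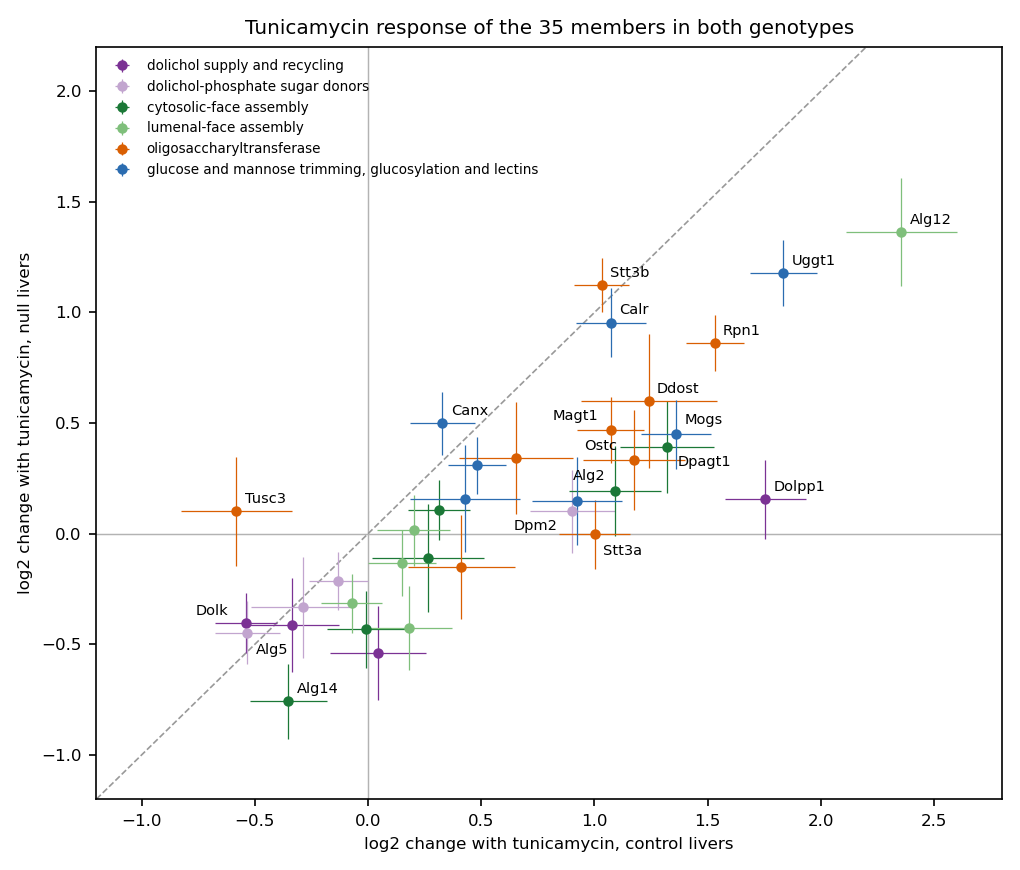
Tunicamycin response of each of the 35 members in control livers (horizontal axis) and null livers (vertical axis), as log2 change of value plus 16, with bars of 1 standard error of the limma fit. Points on the dashed line have equal responses: Stt3b, Calr and Canx lie near it, and Dolpp1 (1.75 and 0.15) and Stt3a (1.00 and -0.0022) lie far below it.

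With vehicle, null and control livers showed 0 of 35 members higher and 0 lower by limma, as for all genes (0% higher and 0% lower). At an unadjusted p under 0.05 there were 3 members, all lower in null livers, and 4.1% of all genes. They were subunits of the oligosaccharyltransferase: Ostc at -0.79 ± 0.23, Tusc3 at -0.69 ± 0.24 and Rpn2 at -0.61 ± 0.25 (adjusted p = 0.988 for each). Null arrays lay wholly below control arrays for 2 members, Ostc and Tusc3, against 4.41% of all genes. The further Ostc probe set differed by 0.15 ± 0.47. The members' median difference was -0.05.

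With tunicamycin, 12 of the 35 members were lower in null than in control livers and 0 were higher, against 3.23% lower and 0.755% higher among all genes. The median difference was -0.51 for the members and 0.02 for all genes. The 12 were Dolpp1 (-1.72 ± 0.18), Ostc (-1.64 ± 0.23), Dpagt1 (-1.31 ± 0.21), Alg2 (-1.15 ± 0.20), Mogs (-1.06 ± 0.15), Dad1 (-1.03 ± 0.24), Alg6 (-0.98 ± 0.19), Stt3a (-0.94 ± 0.16), Dpm2 (-0.76 ± 0.19), Rpn1 (-0.67 ± 0.13), Magt1 (-0.65 ± 0.15) and Uggt1 (-0.64 ± 0.15), with adjusted p from 0.00037 for Dolpp1 to 0.047 for Dpm2. They included 5 of 9 oligosaccharyltransferase subunits, 2 of 6 cytosolic steps and 2 of 7 genes of trimming and folding. The null arrays lay wholly below the control arrays for 24 members, against 11.5% of all genes. Stt3b (-0.05 ± 0.12), Canx (0.009 ± 0.14) and Calr (-0.12 ± 0.16) did not pass. Neither did Alg12 (-0.79 ± 0.25, adjusted p = 0.118), Rpn2 (-0.92 ± 0.25, adjusted p = 0.07), Ddost (-0.96 ± 0.30, adjusted p = 0.119) or Man1b1 (-0.69 ± 0.20, adjusted p = 0.087), whose null arrays all lay below the control arrays. These differences share the control tunicamycin arrays with the control response above, so the values of both are not independent.

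Without the array with kidney transcripts 10 members were lower and 0 higher, against 407 and 122 of all 14568 genes. The members' median was -0.38, and Dpm2 (-0.78 ± 0.22, adjusted p = 0.0761) and Uggt1 (-0.51 ± 0.15, adjusted p = 0.0975) did not pass. The values of Dolpp1 (-1.66 ± 0.20), Ostc (-1.85 ± 0.21), Dpagt1 (-1.37 ± 0.23), Alg2 (-1.32 ± 0.20), Mogs (-0.93 ± 0.16) and Stt3a (-0.95 ± 0.18) still passed. Without control tunicamycin replicate 2 only 6 were lower, against 253 of all genes: Dolpp1, Dpagt1, Alg2, Stt3a, Ostc and Mogs. Alg6 (-0.86, adjusted p = 0.0786) and Rpn1 (-0.62, adjusted p = 0.0715) lost their call without that array and no other. Alg6 also lost it once its probe sets were averaged (-0.42, adjusted p = 0.243), and Rpn1 with only the groups compared (-0.65, adjusted p = 0.0517). Dad1 and Magt1 lost it without any 1 tunicamycin array other than null tunicamycin replicate 2 (-1.10 to -0.96 and -0.69 to -0.58), Uggt1 without any 1 of control vehicle replicate 3, control tunicamycin replicates 1 and 2, null vehicle replicate 3 and null tunicamycin replicates 1 and 2 (-0.68 to -0.51). Dpm2 kept it only without control vehicle replicate 2 or 3 (-0.88 to -0.64 without any other array). The 6 from Dolpp1 to Mogs passed under all 15 alternative settings and without each of the 12 arrays. All 6 Kupffer cell and macrophage markers were also below 0 in this comparison, with a median of -0.65 (-0.41 with vehicle) and none called. Their summed intensity was 2943 to 6498 in null and 5703 to 7168 in control tunicamycin arrays. All 6 endothelial markers lay below 0 too (median -0.14), and all 6 stellate cell and fibroblast markers lay above 0 (median 0.28), with none called. The part of these cell types in the result was not tested. The Gapdh 5′ to 3′ ratio was 0.401 ± 0.0327 (SD, n = 3) in null and 0.556 ± 0.0289 in control tunicamycin arrays. With the Gapdh ratio as a covariate 10 members were lower, against 432 of all genes.

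**Figure D4:**
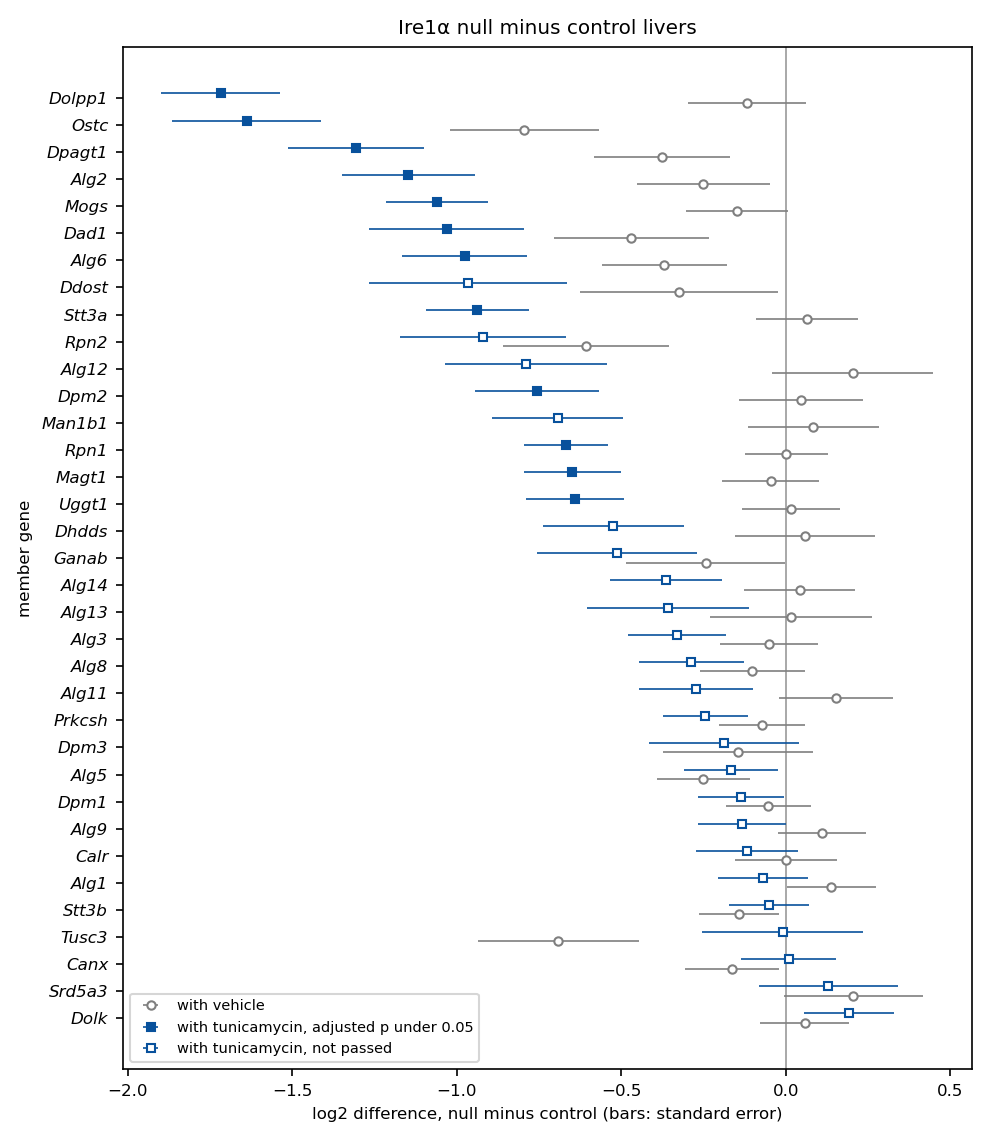
Difference between null and control livers (log2, horizontal axis) for each of the 35 members, with vehicle (grey circles) and with tunicamycin (blue squares, filled where adjusted p is under 0.05), and bars of 1 standard error. Most squares lie left of 0, with Dolpp1 and Ostc the farthest, while most circles lie near 0 apart from Ostc, Tusc3 and Rpn2.

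The interaction, the difference between the tunicamycin responses of the genotypes, was called for 1 of 35 members, against 0.824% of all genes called lower and 0.0137% called higher in null livers. Dolpp1 responded less in null livers, by -1.60 ± 0.25 (adjusted p = 0.0164). Without null tunicamycin replicate 2, the array with kidney transcripts, it was -1.55 ± 0.27 (adjusted p = 0.0236). It did not pass once any 1 of control tunicamycin replicates 1 and 2, null vehicle replicate 1 and null tunicamycin replicate 1 was left out (-1.63 to -1.46, adjusted p = 0.0513 to 0.0567), nor with the values as deposited (-1.59, adjusted p = 0.0559). Next came Stt3a (-1.003 ± 0.22, adjusted p = 0.067) and Mogs (-0.91 ± 0.22, adjusted p = 0.0946), which did not pass (-1.02, adjusted p = 0.0902, and -0.78, adjusted p = 0.149, without the array with kidney transcripts). For Dpagt1 the difference was -0.93 ± 0.29 (adjusted p = 0.271), for Alg12 -0.99 ± 0.35 (adjusted p = 0.362) and for Stt3b 0.09 ± 0.17 (adjusted p = 0.973). The median was -0.41 over the members and 0.03 over all genes. At an unadjusted p under 0.05 there were 13 members, all with a negative difference, and 8.26% of all genes.

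The members had 70 probe sets with 1 gene symbol, and 17 members had more than 1 past the filter. Their values come from a separate fit of all such probe sets. For Dhdds the probe set used was flat in control livers (0.04), while its further probe sets rose by 1.71 ± 0.22 (adjusted p = 0.00026) and 1.36 ± 0.14 (adjusted p = 4.85e-05) there and changed by 0.07 and 0.23 in null livers. With tunicamycin they were lower in null than in control livers (-1.73 ± 0.22 and -1.20 ± 0.14). In the interaction they differed by -1.63 ± 0.31 (adjusted p = 0.0552) and -1.13 ± 0.20 (adjusted p = 0.0428). The choice between them turned on the scale: another had the higher mean of the deposited values, and Dhdds was the only member for which the scales named different probe sets. Which transcripts each reads was not examined. Of the 3 further Stt3a probe sets 2 rose in control livers (1.33 ± 0.21 and 1.77 ± 0.21) and the dimmest did not (0.01 ± 0.18), and in null livers these 3 changed by 0.23, 0.15 and -0.0014. Their interaction values were -1.10 ± 0.30, -1.625 ± 0.30 and -0.0145 ± 0.25 (adjusted p = 0.244, 0.0456 and 0.998). The further Stt3b probe set changed by 0.47 ± 0.15 in control (adjusted p = 0.05) and rose by 0.56 ± 0.15 in null livers (adjusted p = 0.0334). Alg12 was less even: its further probe sets changed by 0.09 ± 0.29 and rose by 0.93 ± 0.23 (adjusted p = 0.0177) in control livers, and changed by -0.27 ± 0.29 and 0.54 ± 0.23 in null livers (adjusted p = 0.663 and 0.202). The further Ostc probe set rose by 2.44 ± 0.47 in control livers (adjusted p = 0.00397), and between genotypes with tunicamycin it did not pass (-1.26 ± 0.47, adjusted p = 0.284). Of the further Canx probe sets, 1 rose by 0.72 ± 0.17 in control (adjusted p = 0.0125) and 0.73 ± 0.17 in null livers (adjusted p = 0.0188), and the other changed by 0.36 ± 0.26 and 0.85 ± 0.26. For Rpn1, 4 further probe sets rose by 1.48 to 1.59 in control livers, and the dimmest fell by 0.56 ± 0.17. The further Alg6 probe set differed between genotypes by 0.13 ± 0.22 with tunicamycin, against -0.98 for the probe set used. The further Magt1 probe set rose by 1.10 ± 0.27 in control livers (adjusted p = 0.0171) and changed by 0.90 ± 0.27 in null livers (adjusted p = 0.0636). Between genotypes it differed by -0.76 ± 0.27 with vehicle and by -0.96 ± 0.27 with tunicamycin (adjusted p = 0.935 and 0.118). Its interaction value was -0.20 ± 0.39. The probe sets used for Srd5a3, Stt3a, Rpn1 and Canx carry the suffix _x_at or _s_at, for probes that can match more than 1 transcript.

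**Figure D5:**
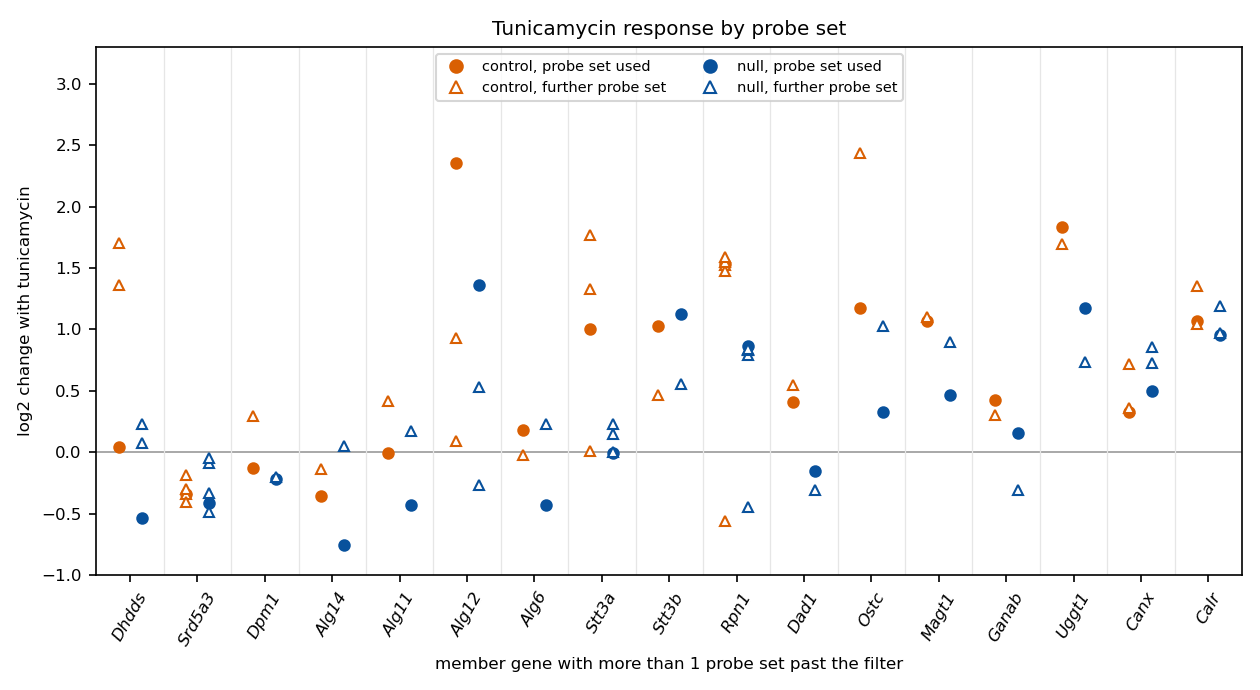
Tunicamycin response (log2 change, vertical axis) of each probe set past the filter for the 17 members with more than 1, in control (orange) and null livers (blue), with the probe set used as a circle and further ones as triangles. The 2 further Dhdds probe sets lie at 1.36 and 1.71 in control livers against 0.04 for the circle, and the 3 brighter Stt3a probe sets lie between 1.00 and 1.77.

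Genes on either side of the pathway were read from further lists. Of the enzymes that make the sugar nucleotides, 7 of 10 measured rose in control livers and 0 fell, and 5 rose in null livers, against rises of 11.6% and 7.59% among all genes. Without the array with kidney transcripts 4 rose in null livers, against 1031 of all 14568 genes. Gmppb, which makes GDP-mannose, read 149, 95.7 and 78.6 in control vehicle, 1800.0, 2191 and 1966 in control tunicamycin, 83.9, 118 and 87.1 in null vehicle and 273, 358 and 453 in null tunicamycin livers. Control tunicamycin was the highest, null tunicamycin lay between and the vehicle groups overlapped. It rose by 3.84 ± 0.22 in control and 1.55 ± 0.22 in null livers, and the responses differed by -2.29 ± 0.31 (adjusted p = 0.00793). Gmppa, its regulatory partner, rose by 2.22 ± 0.16 and 0.54 ± 0.16 and also differed (-1.68 ± 0.22, adjusted p = 0.00793), but without that array its change in null livers did not pass (0.40 ± 0.15, adjusted p = 0.103). Gfpt1, the first enzyme of the hexosamine pathway, rose by 3.49 ± 0.18 and 2.26 ± 0.18 (difference -1.24 ± 0.25, adjusted p = 0.0431). The interaction was called lower for 4 of these 10 genes, with Pgm3 as the other (-2.48 ± 0.48, adjusted p = 0.0411), against 0.824% of all genes. Without that array it was called for 4 too, against 124 of all genes. Pmm1 rose about equally without that array, by 2.46 ± 0.17 in control and 2.49 ± 0.20 in null livers (interaction 0.03 ± 0.26, adjusted p = 0.999). Of 6 measured genes that work beside the members, 3 rose in control livers: Nus1, the partner of Dhdds (1.37 ± 0.18), and the oligosaccharyltransferase subunits Tmem258 (1.12 ± 0.18) and Krtcap2 (0.93 ± 0.17). Nus1 also rose in null livers (0.83 ± 0.18, and 0.58 ± 0.14 without that array), and Tmem258, at -0.29 ± 0.18 there, was called in the interaction (-1.41 ± 0.26, adjusted p = 0.0286, and -1.57 ± 0.24 without that array).

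Of 12 genes for glycoprotein degradation and other lectins, 8 rose in control and 4 in null livers, and 6 were lower in null than in control livers with tunicamycin, against 11.6%, 7.59% and 3.23% of all genes. Without the array with kidney transcripts 3 rose in null livers and 5 were lower, against 1031 and 407 of all 14568 genes. Edem2 rose by 1.34 ± 0.18 in control livers, changed by -0.25 ± 0.18 in null livers and was the gene of this list called in the interaction (-1.58 ± 0.25, adjusted p = 0.017). Edem1 and Edem3, which direct misfolded glycoproteins to degradation, rose by 1.77 ± 0.15 and 1.48 ± 0.15 in control and by 1.26 ± 0.15 and 0.54 ± 0.15 in null livers, where Edem3 did not pass without that array (0.45 ± 0.16, adjusted p = 0.0872). Mcfd2, which exports cargo from the ER together with the lectin Lman1, rose by 1.05 ± 0.12 and 0.87 ± 0.12. Without the array with kidney transcripts, Pdia3 rose by 2.42 ± 0.35 in control and 2.55 ± 0.39 in null livers (interaction 0.13 ± 0.52, adjusted p = 0.997). Of 18 genes of glycan processing in the Golgi, 3 rose and 6 fell in control livers, against 11.6% and 13.3% of all genes, and 0 rose and 6 fell in null livers, against 7.59% and 9.23%. The falls moved with the scaling: with centred medians 2 fell in control and 3 in null livers, and with the values as deposited 2 and 2, while the rises stayed at 3 and 0. Over all genes 1183 and 704 fell with centred medians, and 1068 and 513 with the values as deposited. Without the array with kidney transcripts 4 fell in null livers, against 1155 of all genes. Slc35c1, the GDP-fucose transporter, rose by 1.06 ± 0.19 in control livers and was lower in null than in control livers with tunicamycin (-1.24 ± 0.19, adjusted p = 0.00313). St3gal4, a sialyltransferase, fell by 1.42 ± 0.32, and Mgat2, a branching enzyme, rose by 1.46 ± 0.33 in control livers. The median control change was 1.36 for sugar nucleotide supply, 0.62 for the genes beside the members, 0.74 for degradation and lectins and -0.33 for the Golgi list, against 0.43 for the members.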

How the data were processed

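Total RNA was extracted from liver with Trizol and biotin-labelled from 6 µg for Affymetrix arrays, per the labels' protocols. The authors deposited 1 linear intensity per probe set and array. Probe summarisation and scaling were not given in the sources used here. Of 45101 probe sets, 64 controls were left out, and 34945 had 1 gene symbol in the platform annotation. Those with several (932) or none (9160) were not used in tests. Intensities were taken to log2(value + 16), quantile normalized (limma 3.58.1, R 4.3.3), the dimmest 30% of probe sets left out and the brightest probe set kept for each gene. Group means were fitted with lmFit and eBayes (8 residual degrees of freedom) in 5 contrasts, and p-values were Benjamini-Hochberg adjusted over 14568 genes, called under 0.05. No set test was run. The number of arrays limits the precision. Adding 16 understates the changes of dim probe sets.

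The members and lists were chosen with earlier results of these data known. Values of every array are given for Dpagt1, for up to 3 members of each role with the smallest p in the control response, and for members called between genotypes or in the interaction. Of each other list up to 3 called genes with the smallest p in the control response are named. Canx, Pgm3, Pmm1, Edem2, Pdia3 and values of further members fall outside this rule. The 15 alternatives concerned the pseudocount, filter, normalization, choice of probe set, eBayes options, weights, replicate number as a block, groups fitted and the RNA ratios as covariates, and each of the 12 arrays was left out in turn, all with the probe set of each gene held unless that was the choice. Steps were tested on simulated data. Promoter sequences are RefSeq's (GRCm38.p6). Plots were made with Python 3.11.15 and matplotlib 3.10.9.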

Additional observations from a re-analysis of the deposited data

Results flagged for a closer look

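The tunicamycin response of Dolpp1, the phosphatase that recycles dolichyl pyrophosphate, differed between the genotypes in the limma interaction test by -1.60 ± 0.25 (log2, null minus control, adjusted p = 0.0164). It rose by 1.75 in control livers and changed by 0.15 in null livers. The 3 control tunicamycin values of Dolpp1 lay above the other 9 arrays. In the reported fit it was the only 1 of the 35 members called in that test. Under some other settings Stt3a, Mogs, Rpn1 or Dhdds was called too. Dhdds was called at -1.63 (adjusted p = 0.0342) with the brightest probe set by deposited mean. The call of Dolpp1 was gone with the values as deposited (-1.59, adjusted p = 0.0559) and without any 1 of 4 arrays: control tunicamycin replicate 1 or 2, null vehicle replicate 1 or null tunicamycin replicate 1 (-1.63 to -1.46, adjusted p = 0.0513 to 0.0567).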

How the results depend on the processing

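No called value changed direction under any alternative. Of the calls, 14 of 18 in control livers, 5 of 9 in null livers, 6 of 12 between genotypes with tunicamycin and 0 of 1 in the interaction passed in every setting and without every array, and 0 members were called between genotypes with vehicle in any of them. The count of the interaction, 1 in the reported fit, was 3 with a pseudocount of 64, with all probe sets of a gene averaged, with trend and robust eBayes and with array quality weights, 2 with 50% of probe sets left out, with the Gapdh ratio as a covariate and with the brightest probe set by deposited mean (an alternative added after seeing the data), and 0 with the values as deposited, and could not be fitted with only the groups compared. Over all genes, those called lower in the interaction numbered 79 with the values as deposited and 214 with array quality weights. The count between genotypes with tunicamycin, 12 in the reported fit, was 8 with only the groups compared and 16 with array quality weights. Of all genes 313 and 796 were called lower in these 2 fits. Leaving out each array in turn gave 0 to 2 members in the interaction, 6 (without control tunicamycin replicate 2) to 13 between genotypes with tunicamycin, 16 to 19 in control and 6 to 8 in null livers. The cause of these shifts was not tested. With the replicate number as a block, 18 members were called in control livers, 6 in null livers, 9 between genotypes with tunicamycin and 1 in the interaction. The labels name no pairing, and with 3 arrays per group the values cannot tell whether the numbers pair the samples. The deviations of same-numbered arrays correlated from -0.41 to 0.49, over 0.1 in 5 of 18 pairs. With 3 arrays per group, dim members such as Dpm3 limit what could be seen.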
